A study of Mus musculus with 6 samples.

Results

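The genes described here encode 10 enzymes that make and conjugate bile acids in the liver: Cyp7a1, Cyp7b1, Cyp8b1, Cyp27a1, Cyp39a1, Hsd3b7, Akr1d1, Amacr, Slc27a5 and Baat. They were chosen by gene symbol as members of the classical and alternative pathways of bile acid synthesis and of bile acid conjugation, and all 10 are among the 24411 symbols in the table of counts. Their expression was measured by RNA-seq of liver from 3 p62+/+ mice and 3 p62S351E/+ mice at postnatal day 19. In p62S351E/+ mice, one allele of Sqstm1, the gene encoding p62, carries Glu in place of Ser351. The other allele and both alleles of p62+/+ mice are unedited, and no treatment is named for either group. The comparison asks how a p62 that mimics phosphorylation at this serine affects gene expression in the liver.

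The knock-in allele was made by prime editing in RENKA4, a line of embryonic stem cells from C57BL/6N mice, and reached the colony through sperm of 1 male chimera with low chimerism, used for in vitro fertilization. The p62S351E/+ mice of the study were growth-retarded and poorly nourished, so a difference between the groups cannot be told apart from one that goes with body size or nutrition. Each library is labelled as a separate mouse, and neither the labels nor the methods give the sex of the mice or a sequencing batch.

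Bile acids are made from cholesterol in hepatocytes. In the classical pathway Cyp7a1 carries out the first and rate-limiting step, Hsd3b7 and Akr1d1 modify the sterol rings, Cyp8b1 adds the 12α-hydroxyl group that distinguishes cholic acid, and Cyp27a1 begins to oxidize the side chain, which is then shortened in peroxisomes with the help of Amacr. In the alternative pathways an oxysterol is made first, by Cyp27a1 in many tissues, and is then 7α-hydroxylated by Cyp7b1 or Cyp39a1. Slc27a5 activates bile acids to coenzyme A esters and Baat joins them to taurine or glycine. Bile acids that return to the liver repress Cyp7a1 through the nuclear receptor FXR (Nr1h4), its target SHP (Nr0b2) and the intestinal hormone FGF15.

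Each library held between 8696712 and 10341622 estimated counts, but only between 134911 and 315436 of them (1.305% to 3.304%) fell outside Rn45s, Lars2 and Mir6236, which limits the precision of every gene. The 10 enzymes together had 454, 527 and 556 counts in p62+/+ mice 1 to 3 against 329, 618 and 547 counts in p62S351E/+ mice 1 to 3, and all 60 of their values were whole numbers. Hepatocyte markers such as Alb were abundant in every library, with a normalized sum over the 7 markers in the table of 10954 to 11803 in p62+/+ mice against 12577 to 26570 in p62S351E/+ mice. The libraries stood apart in 10 brain markers (Snap25, Gfap, Mbp and others), whose summed counts were 2158 to 2474 in p62+/+ mice, 2315 in p62S351E/+ mouse 3, but 30 in mouse 1 and 9 in mouse 2 of the p62S351E/+ group. Markers of bile duct (22.5 to 82.1 against 22.5 to 70.5 normalized counts in sum), Kupffer cells (40.4 to 55.3 against 48.0 to 66.8), sinusoidal endothelium (95.5 to 156 against 110 to 181), stellate cells (85.5 to 133 against 73.1 to 118) and erythroid cells (73.2 to 165 against 4.65 to 109) overlapped between the groups, and the bile duct markers Krt19, Krt7 and Epcam had 0 to 3 counts in any library. The female-specific transcript Xist was at 70.8, 1505 and 1071 counts in p62+/+ mice and at 1, 0 and 1537 counts in p62S351E/+ mice. Results that rest on p62S351E/+ mice 1 and 2 are therefore given with and without mouse 3, and for mouse 3 alone. Counts of Sqstm1 itself had a log2 fold change of 0.30 (edgeR, Benjamini-Hochberg adjusted p = 0.499), and this does not check the knock-in, which replaces 1 codon. Gstm1 is a target of the transcription factor NRF2, which is activated when p62 captures KEAP1. It rose with a log2 fold change of 3.59 (edgeR adjusted p = 0.00051), on counts that were not whole numbers in any library. Another target, Nqo1, had 3.93 on few p62+/+ counts (edgeR adjusted p = 0.0670).

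Of the 10 enzymes, 5 are cytochrome P450s, whose haem iron is held by a cysteine in a conserved loop. The coding sequence of this loop is given for the 4 P450s in which the usual pattern of the loop was found, because a read can be assigned to Cyp7a1, Cyp7b1, Cyp27a1 or Cyp39a1 only where their sequences differ. The 30 bases were read from the GENCODE M21 transcripts of the mouse GRCm38 genome, on the coding strand, with the cysteine codon in capitals:
Cyp7a1: tttggatcaggagctacaataTGTcctgga
Cyp7b1: tttggactcggaacaagcaaaTGTccaggg
Cyp27a1: ttcggctatggggttcggtctTGCctgggt
Cyp39a1: tttggaggcgggaagttccagTGTcctgga
The cysteine is codon 444 of 503 in Cyp7a1, 447 of 507 in Cyp7b1, 479 of 533 in Cyp27a1 and 415 of 470 in Cyp39a1. No window of 75 bases, the read length, in the transcript of any P450 member occurs in a transcript of another gene. Among the other members this holds for all except Hsd3b7, of which 1684 of 1754 windows (96%) also lie in transcripts of the overlapping gene models 9430064I24Rik and Gm49388, so the counts of Hsd3b7 are uncertain.

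Cyp39a1 was the one enzyme of the 10 that rose by the test, and no enzyme fell by it. The p62S351E/+ mice also had the lowest Cyp7a1 counts of all the mice, which missed the threshold in the edgeR test and passed it in DESeq2. Of the 10 enzymes, 9 had enough counts to be tested, and Cyp7b1 did not. A gene was called at an adjusted p below 0.05 if its log2 fold change was also above 1 or below -1. By this rule 1 of the 9 was called higher, where the share over all 5945 genes tested was 0.841%, and 0 of the 9 were called lower, where that share was 0.0841%. The groups did not overlap in 3 enzymes that were higher in p62S351E/+ mice (Cyp39a1, Akr1d1 and Slc27a5), against 12.0% of all genes tested, and in 1 that was lower (Cyp7a1), against 14.7%. The log2 fold change was above 0 in 8 of the 9, with a median of 0.68 against -0.03 over all genes tested, but the median was 0.053 with libraries scaled to hepatocyte markers and -0.007 with library size only. At an unadjusted p below 0.05 there were 5 of the 9, where 14.6% of all genes tested reached it in either direction, and DESeq2 and limma-voom each called 1 enzyme higher and 1 lower. DESeq2 gave an adjusted p to 7 of the enzymes and to 1425 genes, of which 4.28% were called higher and 0.842% lower. In limma-voom the shares were 2.05% and 0.219% of 5945 genes.

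**Figure D1:**
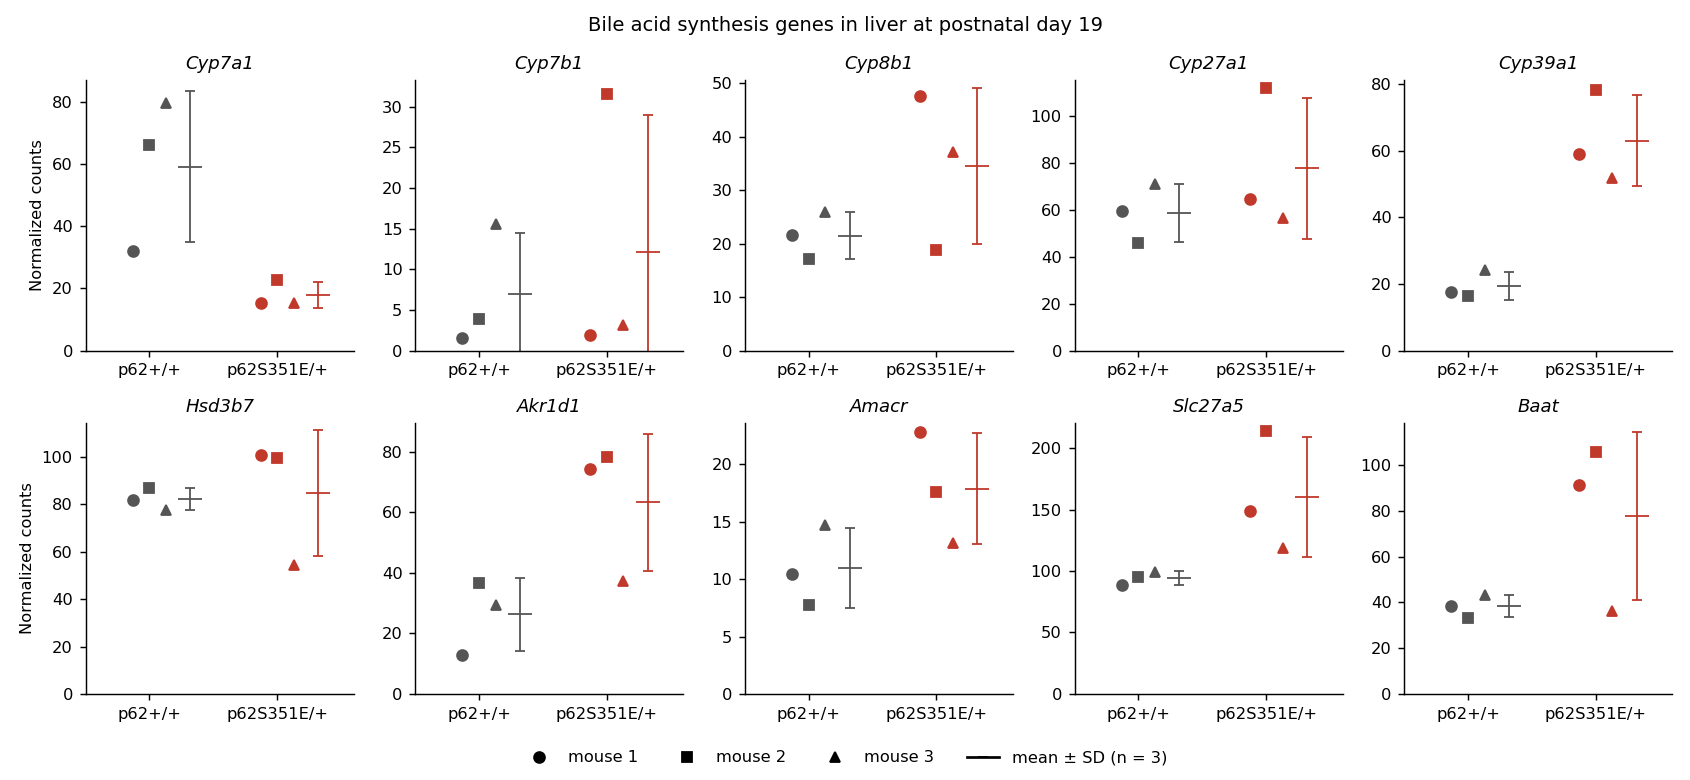
Normalized counts of the 10 bile acid synthesis enzymes in each mouse, in 1 panel per gene with its own vertical axis from 0. Circles, squares and triangles are mice 1, 2 and 3 of each genotype, and the bar beside them is the mean ± SD (n = 3, drawn from 0 where it would run below). Only in Cyp7a1 do all p62S351E/+ mice lie below all p62+/+ mice, and in Cyp39a1, Akr1d1 and Slc27a5 they all lie above.

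Cyp7a1 (chr4:6265612-6275633, minus strand, 6 exons) encodes cholesterol 7α-hydroxylase. It had 40, 85 and 92 counts in p62+/+ mice 1 to 3 against 8, 18 and 20 counts in p62S351E/+ mice 1 to 3. Scaled for library size, these were 32.1, 66.0 and 79.5 normalized counts against 15.2, 22.7 and 15.5. The highest p62S351E/+ mouse was below the lowest p62+/+ mouse, and p62+/+ mouse 1 was well below the other two of its group. That mouse was also apart from them in the sex markers. It had 70.8 counts of Xist against 1505 and 1071, and 30 counts of Ddx3y against 8 and 6. Its counts of Uty were 18 against 1 and 5, and of Kdm5d 18 against 0 and 4. Xist and Y-chromosome transcripts thus occurred in the same libraries, so these markers did not assign a sex to each mouse. The part of sex in the Cyp7a1 values was not tested. A fit with Xist as a covariate gave a log2 fold change of -1.65 (edgeR adjusted p = 0.359). The means were 59.2 ± 24.4 and 17.8 ± 4.23 normalized counts (SD, n = 3 each), and the log2 fold change was -1.72 (standard error 0.36, 95% interval -2.56 to -0.89). With edgeR's quasi-likelihood test the adjusted p was 0.0840 (Benjamini-Hochberg), so the difference was not called. DESeq2 gave -1.76 with an adjusted p of 0.0256, and limma-voom -1.62 with an adjusted p of 0.0336. Over 18 alternatives the log2 fold change lay between -2.40 and -1.45 and the adjusted p between 0.00998 and 0.359, and 4 of them called the gene. Against the p62+/+ mice, p62S351E/+ mice 1 and 2 had a log2 fold change of -1.62 (edgeR adjusted p = 0.00998), and mouse 3 alone had -1.91 (edgeR adjusted p = 0.205, with the spread taken from the p62+/+ mice). The lower Cyp7a1 counts were thus present in the p62S351E/+ library with brain transcripts as well as in those without.

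Cyp7a1 is expressed in hepatocytes near the central vein, and markers of the hepatocyte zones moved with the genotype in part. Glul, a marker restricted to the cells next to the vein, had 299, 297 and 272 normalized counts in p62+/+ mice against 38.1, 120 and 191 in p62S351E/+ mice, with no overlap (log2 fold change -1.30, edgeR adjusted p = 0.312). Its lowest values were in p62S351E/+ mice 1 and 2, which had 30 and 9 brain marker counts, against 2315 in mouse 3. The part of the brain transcripts in the Glul values was not tested. Of all 6 pericentral markers, 1 was lower without overlap (Glul) and 1 was higher (Cyp1a2), against 14.7% and 12.0% of all genes tested. The normalized sum of the 6 was 1609 to 1657 in p62+/+ mice against 1242 to 2016 in p62S351E/+ mice. The 7 periportal markers summed to 626 to 880 normalized counts in p62+/+ mice and to 1297 to 2300 in p62S351E/+ mice. Much of this sum was Pck1, at 576, 285 and 395 against 1264, 1392 and 847. Of the 7, 4 (Pck1, Arg1, Hal and Gls2) were higher without overlap, against 12.0% of all genes tested. Cyp2f2, Sds and Ass1 overlapped, with log2 fold changes of 0.90, 0.08 and -0.25. Ass1 had 0, 0 and 59.1 counts in p62+/+ mice against 0, 19.7 and 19.7 in p62S351E/+ mice, so its value is imprecise (standard error 1.92). The part of these markers in the Cyp7a1 values was not tested. In bulk liver, fewer cells of a type and less RNA per cell cannot be told apart.

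Hsd3b7 (chr7:127800604-127803802) encodes the 3β-hydroxysteroid dehydrogenase that acts on the product of Cyp7a1. Its normalized counts were 77.7 to 86.9 in p62+/+ mice against 101, 99.5 and 54.2 in p62S351E/+ mice 1 to 3. Mice 1 and 2 lay above the p62+/+ mice and mouse 3 below them, and the log2 fold change over both groups was 0.04 (95% interval -0.57 to 0.65, edgeR adjusted p = 0.953). Its sign was negative in 10 of 19 alternatives.

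Akr1d1 (chr6:37530173-37568815) encodes the 5β-reductase that gives bile acids their bent ring system. It had 16, 47 and 34 counts in p62+/+ mice against 39, 62 and 48 counts in p62S351E/+ mice, or 12.8, 36.5 and 29.4 against 74.3, 78.1 and 37.2 normalized counts. Mouse 3 of the p62S351E/+ group was just above the highest p62+/+ mouse and far below the other two of its own group. The log2 fold change was 1.26 (95% interval 0.27 to 2.24), and the edgeR adjusted p of 0.260 missed the threshold. Without p62S351E/+ mouse 3 it was 1.54 (edgeR adjusted p = 0.00758), and for mouse 3 alone 0.51 (edgeR adjusted p = 0.812).

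Cyp8b1, a gene of a single exon (chr9:121914356-121916305, minus strand), encodes the sterol 12α-hydroxylase. Its normalized counts were 17.1 to 25.9 in p62+/+ mice against 47.6, 18.9 and 37.2 in p62S351E/+ mice, so that mice 1 and 3 lay above the p62+/+ range and mouse 2 within it. The log2 fold change of 0.67 had a 95% interval from -0.14 to 1.48 (edgeR adjusted p = 0.414). Promoters of 4 of the 10 enzymes (Cyp8b1, Cyp27a1, Hsd3b7 and Akr1d1) were in the RefSeq table used, from 250 bases before to 50 bases after the start. They were searched on both strands for CAAAGTCCA, a binding site of HNF4A, for CAAGGNCA, a site of LRH-1 (Nr5a2), for TGACNNNGC, the core of the antioxidant response element bound by NRF2, and for TATAAA. Only the Cyp8b1 promoter held any of them, and it is shown because it held each of the 4. In the sequence, which is chr9:121916256-121916555 on the minus strand of GRCm38.p6, capitals mark the antioxidant response core and then the overlapping HNF4A and LRH-1 sites, while TATAAA is in lower case:
Cyp8b1 promoter: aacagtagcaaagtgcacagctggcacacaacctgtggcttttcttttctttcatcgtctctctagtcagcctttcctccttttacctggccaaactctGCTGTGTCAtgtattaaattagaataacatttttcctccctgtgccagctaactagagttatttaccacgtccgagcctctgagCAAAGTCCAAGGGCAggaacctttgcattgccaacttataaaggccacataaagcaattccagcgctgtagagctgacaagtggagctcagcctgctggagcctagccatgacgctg
The HNF4A site began 67 bases before the start and the LRH-1 site 60 bases before it, both on the gene's strand. The antioxidant response core lay on the opposite strand, 151 bases before the start, and TATAAA 31 bases before it. Of 32851 promoters of this length, 0.475% held the HNF4A site, 6.71% the LRH-1 site, 12.4% the antioxidant response core and 13.6% TATAAA. These are matches of letters and not measured binding.

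Cyp27a1 (chr1:74713574-74737892) encodes the mitochondrial sterol 27-hydroxylase, which serves both pathways. Its normalized counts were 45.8 to 70.8 in p62+/+ mice against 64.7, 112 and 56.6 in p62S351E/+ mice, and only mouse 2 lay outside the p62+/+ range. The log2 fold change was 0.41 (95% interval -0.29 to 1.11, edgeR adjusted p = 0.546).

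Cyp7b1 (chr3:18071950-18243338, minus strand), the oxysterol 7α-hydroxylase of the alternative pathway, had low and uneven counts. It had 2, 5 and 18 counts in p62+/+ mice against 1, 25 and 4 counts in p62S351E/+ mice. The counts differed more within each group than between the groups. The gene did not pass the filter on low counts in the main fit, which therefore tested no difference for it.

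Cyp39a1 (chr17:43667425-43751431, plus strand, 12 exons) encodes the 7α-hydroxylase that prefers 24-hydroxycholesterol. It had 22, 21 and 28 counts in p62+/+ mice against 31, 62 and 67 counts in p62S351E/+ mice, or 17.7, 16.3 and 24.2 against 59.0, 78.1 and 51.9 normalized counts. Every p62S351E/+ mouse was above every p62+/+ mouse, also in counts before scaling. From 19.4 ± 4.21 to 63.0 ± 13.6 normalized counts (SD, n = 3 each), Cyp39a1 rose 3.24-fold (log2 fold change 1.70, standard error 0.26, 95% interval 1.09 to 2.30, edgeR adjusted p = 0.0282). The rise was present without p62S351E/+ mouse 3 (log2 fold change 1.82, edgeR adjusted p = 0.000547) and in mouse 3 alone (1.43, edgeR adjusted p = 0.00632). DESeq2 gave 1.67 with an adjusted p of 0.00828. Among 19 alternatives the direction was the same in 19 and the call was made in 10, with adjusted p-values between 0.000547 and 0.417. The call was lost on leaving out any mouse except p62S351E/+ mouse 3, with log2 fold changes of 1.52 to 1.89 and edgeR adjusted p-values of 0.0741 to 0.185.

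**Figure D2:**
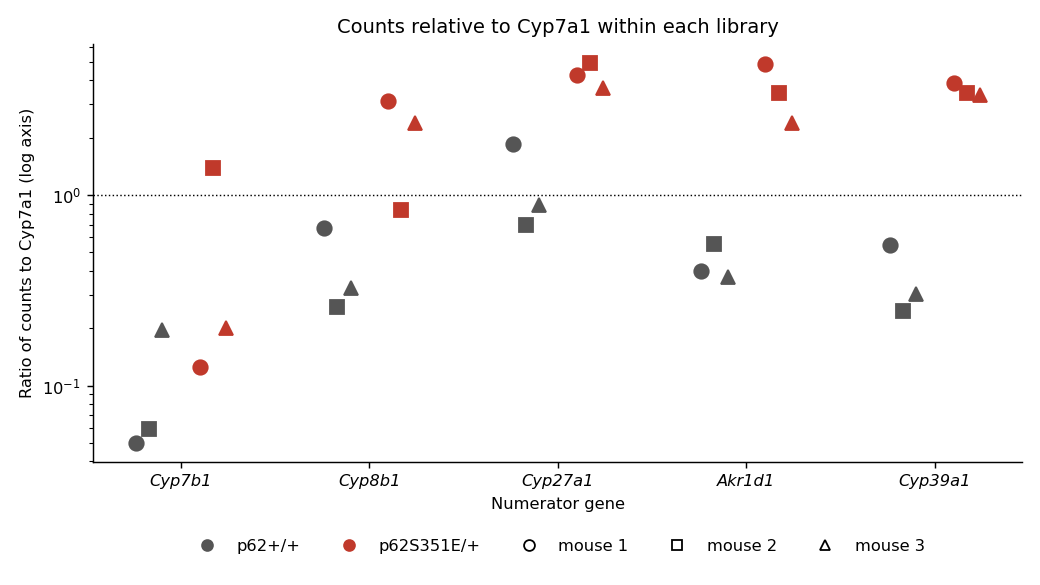
Ratio of the counts of 5 enzymes to the counts of Cyp7a1 in the same library, on a log axis. Grey points are p62+/+ mice and red points p62S351E/+ mice, with circles, squares and triangles for mice 1, 2 and 3. The p62S351E/+ mice lie above the p62+/+ mice for Cyp8b1, Cyp27a1, Akr1d1 and Cyp39a1, and the groups overlap for Cyp7b1.

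The ratio of 2 genes within a library does not depend on how libraries are scaled to each other. Counts of Cyp39a1 per count of Cyp7a1 were 0.55, 0.247 and 0.304 in p62+/+ mice against 3.88, 3.44 and 3.35 in p62S351E/+ mice, so that Cyp7a1 had more counts than Cyp39a1 in each p62+/+ mouse and fewer in each p62S351E/+ mouse. This ratio was added after the data had been seen. The order of Akr1d1 and Cyp7a1 turned in the same way, with 0.40, 0.553 and 0.370 counts per count of Cyp7a1 in p62+/+ mice against 4.88, 3.44 and 2.40 in p62S351E/+ mice. The groups were also apart for Cyp27a1, at 0.694 to 1.85 against 3.65 to 4.94 counts, and for Cyp8b1, at 0.259 to 0.675 against 0.833 to 3.13 counts. These ratios share the Cyp7a1 counts and are not independent of each other. Cyp7a1 itself was lower in every p62S351E/+ mouse, while the normalized counts of Cyp27a1 and Cyp8b1 overlapped between the groups. The share of all genes whose ratio to Cyp7a1 is apart was not counted, so the ratios are description only. They were apart in p62S351E/+ mouse 3 as in mice 1 and 2.

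Amacr (chr15:10981756-10996626) encodes the racemase that turns the side chain into the form peroxisomes can shorten. It had 10 to 17 counts in every library, and its normalized counts were 7.76 to 14.7 in p62+/+ mice against 13.2 to 22.9 in p62S351E/+ mice, with overlap. The log2 fold change was 0.68 (95% interval -0.16 to 1.52, edgeR adjusted p = 0.421).

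The conjugating enzymes were Slc27a5 (chr7:12988346-12998192, minus strand), which encodes the bile acid coenzyme A ligase, and Baat (chr4:49489422-49506557, minus strand), the amino acid transferase. Slc27a5 had 88.3, 95.5 and 99.3 normalized counts in p62+/+ mice against 149, 214 and 119 in p62S351E/+ mice. These groups did not overlap, and the log2 fold change was 0.76 (95% interval 0.19 to 1.34, edgeR adjusted p = 0.243). Baat had 38.5, 33.4 and 43.2 normalized counts in p62+/+ mice against 91.4, 106 and 36.4 in p62S351E/+ mice. Mice 1 and 2 were above the p62+/+ range and mouse 3 was within it, and the log2 fold change was 1.01 (95% interval 0.16 to 1.86, edgeR adjusted p = 0.283). Of the 9 tested enzymes, Baat differed most between the fit without p62S351E/+ mouse 3 and the fit of mouse 3 alone. Without mouse 3 its log2 fold change was 1.36 (edgeR adjusted p = 0.00116), and for mouse 3 alone it was -0.061 (edgeR adjusted p = 0.970). Slc27a5 had 0.94 (edgeR adjusted p = 0.00804) and 0.34 (edgeR adjusted p = 0.728) in the same fits. Counts of Baat per count of Slc27a5 overlapped between the groups, at 0.350 to 0.436 and 0.307 to 0.615.

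**Figure D3:**
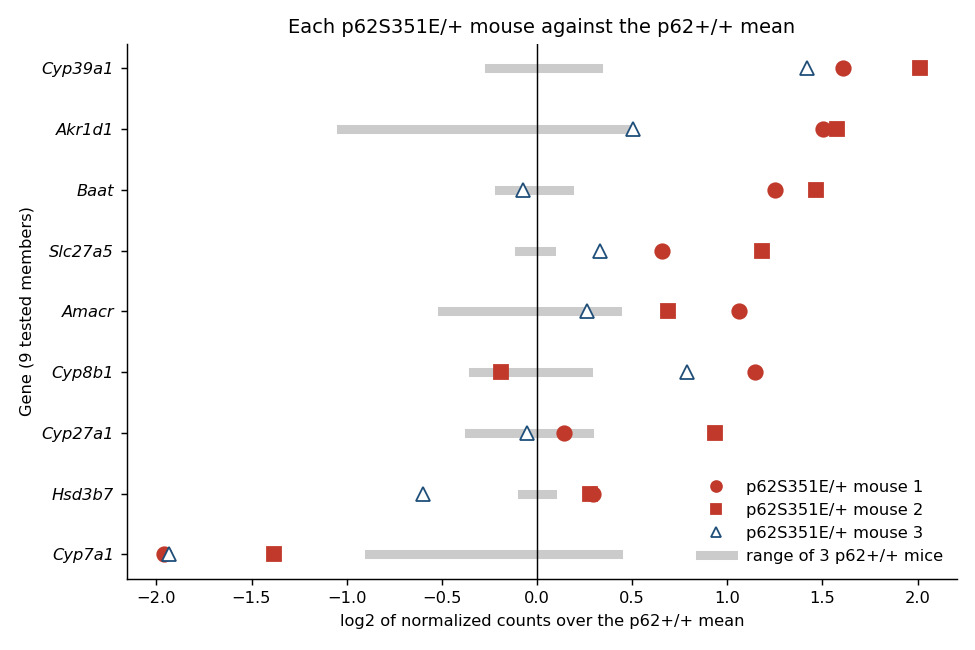
Log2 ratio of the normalized counts of each p62S351E/+ mouse to the mean of the 3 p62+/+ mice, for the 9 tested enzymes. The grey bar is the range of the p62+/+ mice. Mouse 3 (open triangle) lies with mice 1 and 2 in Cyp7a1 and Cyp39a1 and nearer to the p62+/+ mice in Baat, Akr1d1 and Slc27a5.

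The p62S351E/+ mice differed from each other across the enzymes. The median log2 ratio to the p62+/+ mean over the 9 tested enzymes was 1.06 in mouse 1, 0.93 in mouse 2 and 0.27 in mouse 3. Mouse 1 was above all p62+/+ mice in 7 of the 10 enzymes, mouse 2 in 8 and mouse 3 in 4. Mouse 3 was the lowest of its group in 7 enzymes and the highest in 0. With mouse 3 left out, edgeR called 3 enzymes higher (Cyp39a1, Akr1d1 and Baat) and 1 lower (Cyp7a1), where 5.21% of 6390 genes were called higher and 15.3% lower. With mouse 3 as the lone p62S351E/+ library, 1 enzyme (Cyp39a1) was called higher and 0 lower, where 0.949% of 7588 genes were called higher and 0.303% lower. The brain transcripts divide the p62S351E/+ mice in the same way, since mouse 3 carries them and mice 1 and 2 do not, and the part of these transcripts was not tested. The sex markers divide them likewise, with Xist at 1, 0 and 1537 counts and Ddx3y, a gene of the Y chromosome, at 21, 33 and 7 counts in mice 1 to 3. Mouse 3 thus held both transcripts, and the part of sex was not tested. With Xist as a covariate, edgeR called 0 enzymes, where 27 of all 5945 genes were called higher and 2 lower. The median log2 fold change of the enzymes was 0.44. Baat was then at 0.26 (edgeR adjusted p = 0.809), Akr1d1 at 0.94 (edgeR adjusted p = 0.606), Cyp27a1 at 0.057 (edgeR adjusted p = 0.966) and Cyp39a1 at 1.52 (edgeR adjusted p = 0.101).

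**Figure D4:**
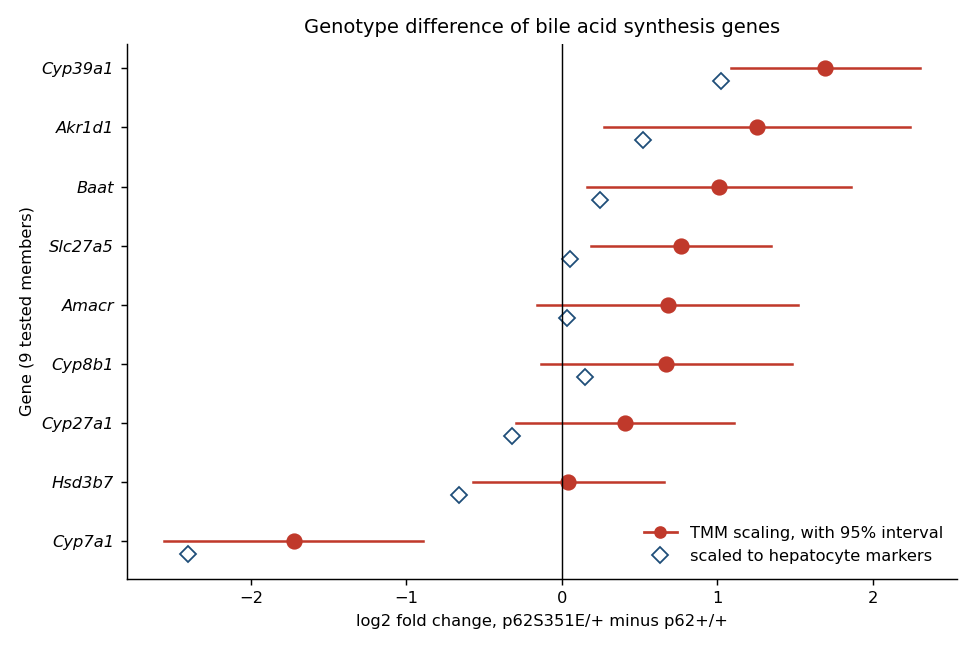
Log2 fold change (p62S351E/+ minus p62+/+) of the 9 tested enzymes. Filled circles with 95% intervals are from edgeR with TMM scaling, and open diamonds are the values when libraries are scaled to 7 hepatocyte markers. Scaling to the markers moves each gene down, and Cyp7a1 and Cyp39a1 remain the outermost genes at -2.40 and 1.02.

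Because the normalized sum of the hepatocyte markers was higher in p62S351E/+ mice, the enzymes were also set against these markers, in a scaling added after the data had been seen. Alb held the largest part of this sum, such as 6236 of 11803 in p62+/+ mouse 1 and 16390 of 26570 in p62S351E/+ mouse 2. Of the 7 markers, 4 were higher without overlap (12.0% over all genes tested). Apoa1, Ttr and Fgb overlapped, with log2 fold changes of -0.04, 0.13 and 0.44. Scaling to the markers, and so largely to Alb, moved the median of all genes from -0.03 to -0.64 on the log2 scale. The median of the enzymes moved from 0.68 to 0.053. Per 1000 counts of hepatocyte markers, the 10 enzymes together had 30.9, 37.4 and 42.3 counts in p62+/+ mice against 35.4, 29.3 and 33.7 counts in p62S351E/+ mice, which overlap. Cyp7a1 had 2.72, 6.02 and 6.995 counts per 1000 hepatocyte marker counts in p62+/+ mice against 0.860, 0.854 and 1.23 in p62S351E/+ mice. Cyp39a1 had 1.50, 1.49 and 2.13 in p62+/+ mice against 3.33, 2.94 and 4.13 in p62S351E/+ mice. These groups stayed apart for both genes. Hsd3b7 had 6.84 to 7.94 against 3.75 to 5.70 counts per 1000, with every p62S351E/+ mouse lower, while Akr1d1 and Slc27a5 overlapped on this scale. The log2 fold change of Hsd3b7 with this scaling was -0.66, near the median of all genes of -0.64. The share of all genes whose groups are apart on this scale was not counted. In the fit with this scaling the log2 fold change was -2.40 for Cyp7a1 (edgeR adjusted p = 0.0680) and 1.02 for Cyp39a1 (edgeR adjusted p = 0.286). This fit called 0 enzymes, where 11 of all 5945 genes were called higher and 7 lower. With library size as the only scaling the Cyp39a1 value was 1.01 (edgeR adjusted p = 0.417).

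Levels of different genes were compared as normalized counts per kilobase of the transcript with the longest coding sequence. In p62+/+ mice the order was Hsd3b7 (45.0, with the limit given above), Slc27a5 (41.2), Cyp27a1 (31.0), Baat (19.8), Cyp7a1 (14.2), Cyp8b1 (11.1), Akr1d1 (9.72), Cyp39a1 (6.35), Amacr (4.25) and Cyp7b1 (3.24). Neighbours in this order overlapped over the 3 mice except Slc27a5 with Cyp27a1 and Cyp27a1 with Baat. In p62S351E/+ mice Slc27a5 was highest at 70.1 per kilobase, followed by Hsd3b7 (46.4), Cyp27a1 (41.1), Baat (40.1), Akr1d1 (23.4), Cyp39a1 (20.6), Cyp8b1 (17.7), Amacr (6.94), Cyp7b1 (5.62) and Cyp7a1 (4.27). The only neighbours without overlap there were Cyp8b1 and Amacr. Cyp7a1 went from place 5 of 10 to place 10, and Cyp39a1 from place 8 to place 6.

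Among 15 other genes of bile acid synthesis and its electron supply, 10 were tested, and 5 had an unadjusted p below 0.05 (14.6% over all genes). Calls were 1 higher and 0 lower with each of edgeR, DESeq2 (9 genes with an adjusted p) and limma-voom. Over all genes the shares called higher were 0.841%, 4.28% and 2.05%, and those called lower 0.0841%, 0.842% and 0.219%. The median log2 fold change was 0.49, or -0.19 with scaling to hepatocyte markers and -0.23 with library size only. The gene that rose was Acox2, the branched-chain acyl-coenzyme A oxidase that begins the peroxisomal shortening of the side chain (chr14:8225511-8259353, minus strand). Acox2 had 34.5, 33.4 and 27.6 normalized counts in p62+/+ mice against 89.5, 88.2 and 68.2 in p62S351E/+ mice, with no overlap. Its log2 fold change was 1.36 (standard error 0.22, edgeR adjusted p = 0.0341), and it was called in 9 of 19 alternatives. For mouse 3 alone it was 1.10 (edgeR adjusted p = 0.0274), and with scaling to hepatocyte markers 0.71 (edgeR adjusted p = 0.316). Leaving out any mouse except p62S351E/+ mouse 3 ended the call, with adjusted p-values of 0.0829 to 0.184.

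The other genes of this list did not pass the test. Cyp2a12, which hydroxylates bile acids and whose counts were not whole numbers, had a log2 fold change of 0.92 (edgeR adjusted p = 0.203). Por, the reductase that supplies microsomal P450s with electrons, had 0.68 (edgeR adjusted p = 0.234). Akr1c14 had 0.91 (edgeR adjusted p = 0.301), Hsd17b4, the peroxisomal enzyme that follows Acox2, 0.54 (edgeR adjusted p = 0.336), and Abcd3, which carries side-chain intermediates into peroxisomes, 0.43 (edgeR adjusted p = 0.474). Without p62S351E/+ mouse 3, edgeR called 3 genes of the list higher (Acox2, Akr1c14 and Cyp2a12), against 5.21% of all genes in that fit.

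Of 19 pathway regulators, 15 were tested and 0 were called by edgeR, where 0.841% of all genes were called higher and 0.0841% lower. The median log2 fold change was 0.33, or -0.23 with scaling to hepatocyte markers and -0.32 with library size only. At an unadjusted p below 0.05 there were 5 of the 15 (14.6% over all genes). DESeq2 gave an adjusted p to 6 regulators, with none for Nr5a2, Ppargc1a and Nr0b2. It called 1 higher (Nr1i3), where 4.28% of all genes with an adjusted p were called higher. Of 15 regulators limma-voom called 2 higher (Nr1i3 and Nr5a2), against 2.05% of all genes. Without p62S351E/+ mouse 3, edgeR called 3 of 16 higher (Nr1i3, Nr5a2 and Ppargc1a), against 5.21% of all genes. Nr0b2, which encodes SHP, the repressor of Cyp7a1, had 8.83, 6.99 and 5.18 normalized counts in p62+/+ mice against 22.9, 12.6 and 14.7 in p62S351E/+ mice. These do not overlap but rest on 6 to 19 counts per library, and the log2 fold change was 1.22 (edgeR adjusted p = 0.230). Nr5a2, which encodes LRH-1, an activator of Cyp7a1 and Cyp8b1, had 12.0, 10.1 and 11.2 against 36.2, 30.2 and 21.7 normalized counts (log2 fold change 1.38, edgeR adjusted p = 0.0878). Nr1i3, which encodes the xenobiotic receptor CAR, had 1.63 (edgeR adjusted p = 0.131), and its counts were not whole numbers.

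Hnf4a, the hepatocyte factor that acts on many of these genes, had 84.6 to 89.8 normalized counts in p62+/+ mice against 113 to 189 in p62S351E/+ mice (log2 fold change 0.73, edgeR adjusted p = 0.241). For Ppargc1a, a coactivator induced by fasting, the log2 fold change was 1.03 (edgeR adjusted p = 0.203). Nr1h4, which encodes FXR, had -0.17 (95% interval -0.75 to 0.41, edgeR adjusted p = 0.759). Fgf15, which is made in the intestine, had 0 counts in all 6 libraries, which allows up to 3 counts in each.

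Of 12 genes of bile acid transport, 10 were tested and 2 rose, where edgeR called 0.841% of all genes higher. These were Abcc3 and Abcc4, which encode exporters to the blood side of the hepatocyte. No gene of the list was called lower by edgeR, DESeq2 or limma-voom, and 5 of the 10 had an unadjusted p below 0.05 (14.6% over all genes). The median log2 fold change was 0.64, or -0.055 with scaling to hepatocyte markers and -0.081 with library size only. Abcc3 (chr11:94343295-94392997, minus strand) had 18.5, 23.3 and 23.3 normalized counts in p62+/+ mice against 248, 215 and 175 in p62S351E/+ mice, and its log2 fold change was 3.29 (standard error 0.24, edgeR adjusted p = 0.00051). Abcc4 (chr14:118482692-118706219, minus strand) had 4, 8 and 2 counts in p62+/+ mice against 44, 44 and 74 counts in p62S351E/+ mice, and its log2 fold change was 4.08 (standard error 0.42, edgeR adjusted p = 0.00509). Both were far above the p62+/+ mice in every p62S351E/+ mouse. They were called in all alternatives that tested them, 19 for Abcc3 with log2 fold changes of 2.56 to 3.41 and 18 for Abcc4 with 3.37 to 4.66.

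**Figure D5:**
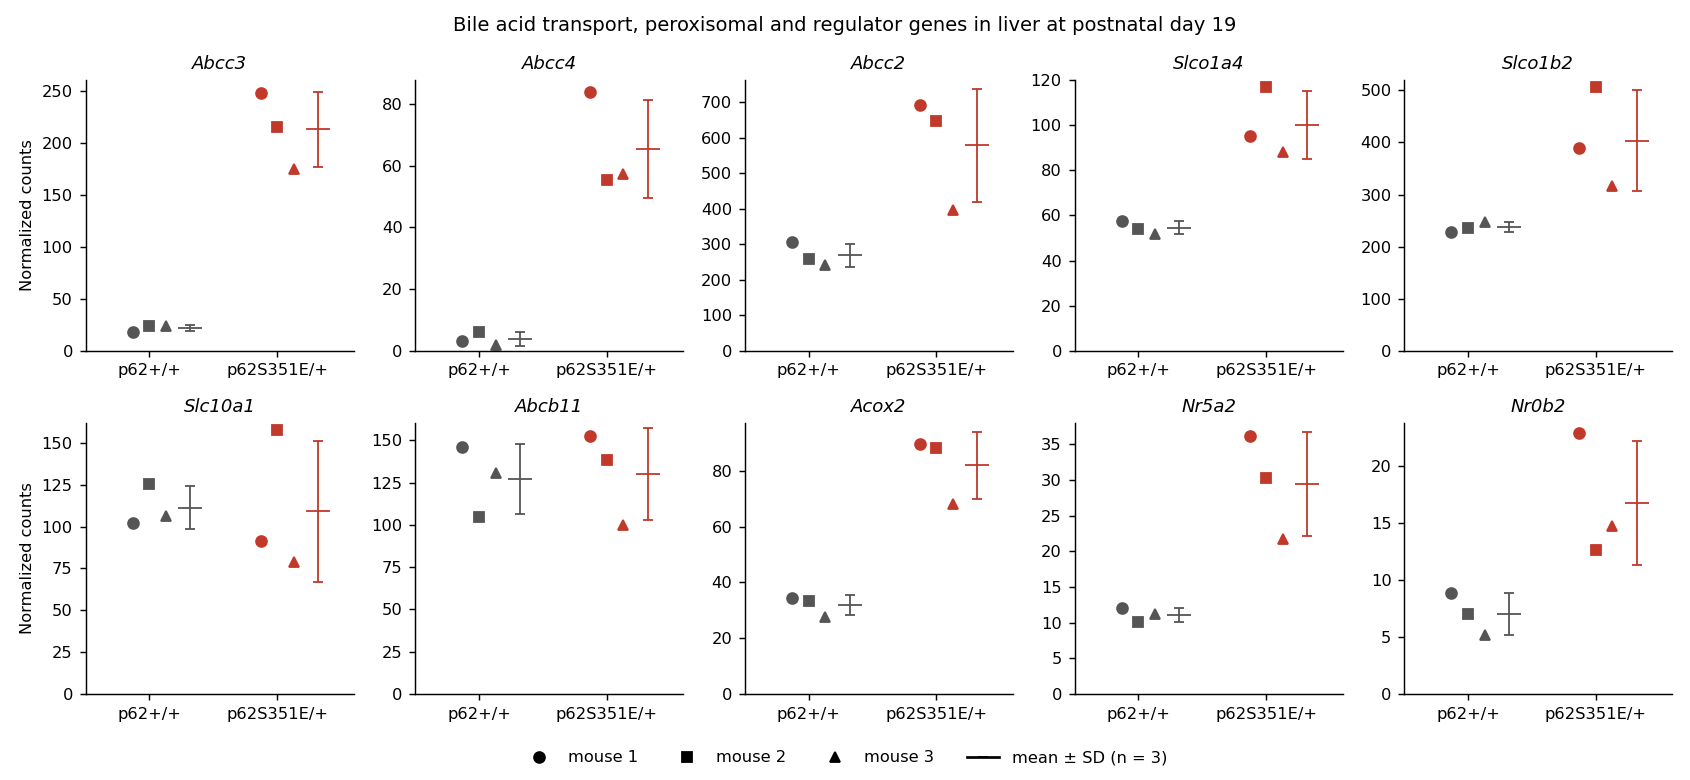
Normalized counts in each mouse for 10 genes of bile acid transport, peroxisomal side-chain shortening and regulation, with symbols, bars (mean ± SD, n = 3) and separate axes from 0 as in the plot of the enzymes. Abcc3, Abcc4 and Acox2 passed the test. Slc10a1 and Abcb11 overlap between the genotypes.

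The canalicular exporter Abcc2 had 242 to 306 normalized counts in p62+/+ mice against 395 to 691 in p62S351E/+ mice, a log2 fold change of 1.10 (edgeR adjusted p = 0.118). It was called higher by limma-voom (1.07, adjusted p = 0.0360) and by edgeR without p62S351E/+ mouse 3 (1.32, adjusted p = 0.000557). The uptake carriers Slco1a4 and Slco1b2 had log2 fold changes of 0.87 (edgeR adjusted p = 0.117) and 0.77 (edgeR adjusted p = 0.216), and neither they nor Abcc2 overlapped between the groups. Of all genes tested, 12.0% were higher without overlap. The Slco1a4 count was a whole number in only 1 of the 6 libraries. Slc10a1, the main sodium-dependent uptake carrier of bile acids, had 102, 126 and 106 normalized counts in p62+/+ mice against 91.4, 157 and 79.0 in p62S351E/+ mice (log2 fold change -0.03, 95% interval -0.68 to 0.62, edgeR adjusted p = 0.971). Abcb11, the bile salt export pump, had 0.03 (95% interval -0.51 to 0.58, edgeR adjusted p = 0.957). The phospholipid exporter Abcb4, with counts that were not whole numbers in 5 of the 6 libraries, had 0.31 (edgeR adjusted p = 0.621), and the flippase Atp8b1 had 0.50 (edgeR adjusted p = 0.599). Slc51a had 1 count and Slc51b 1 count over all 6 libraries.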

How the data were processed

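Total RNA from liver of 6 mice, 3 per genotype, was depleted of ribosomal RNA and sequenced as 75-base single-end reads. Per the labels and the study's methods, the authors trimmed reads with Trim Galore, mapped them to mm10 with STAR and estimated counts per gene with RSEM. The deposited values are these expected counts, without normalization. Tool versions and the annotation are not given in the sources used here, and the authors compared the genotypes with DESeq2. RSEM divides reads that match several genes, and 6.45% of the nonzero values were not whole.

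Expected counts were rounded to whole numbers and tested over the whole table in R 4.3.3 with edgeR 4.0.16 (filterByExpr with a minimum count of 10, TMM, robust dispersions, quasi-likelihood test with legacy set to FALSE). Adjusted p-values are by Benjamini-Hochberg over the genes of each fit, 5945 in the main one. The tests set the difference between the groups against the spread between mice. In the fit of p62S351E/+ mouse 3 alone that spread came from the p62+/+ mice only. To obtain normalized counts, each library was divided by its TMM-corrected size, expressed relative to the geometric mean of the 6 sizes. An exact two-sided permutation test of 1 gene in 3 and 3 mice has a smallest p of 0.1 and was not used. Alternatives were DESeq2 1.42.0, limma-voom 3.58.1, the legacy quasi-likelihood method, other scalings and filters, adjusted p alone, a replicate block, Xist counts as a covariate and each mouse left out in turn, and scaling to hepatocyte markers was added later. With few counts per library (134911 to 315436 outside the 3 largest genes), genes near the filter are imprecise. The fits were tested on simulated data.

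The named genes are all 10 enzymes, and from each list of other pathway genes (other synthesis genes, regulators, transport) every called gene and up to 5 more with the smallest p, with Fgf15 and Nr0b2 always, and Sqstm1, Gstm1 and Nqo1 as a check of the genotype. Nr1h4, Slc10a1, Abcb11, Slc51a and Slc51b were named after their values were seen. The enzymes and lists were chosen with earlier results of these data known. Positions and transcript lengths are from GENCODE M21 and promoters from RefSeq, both on GRCm38, the build of mm10. Proteins were not used here.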

Additional observations from a re-analysis of the deposited data

How the results depend on the processing

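Cyp7a1 was called lower by DESeq2, by limma-voom and without a filter on low counts (1 enzyme lower in each, against 0), and leaving out a mouse gave 0 to 1 lower, the 1 without p62S351E/+ mouse 3. Enzymes called higher were 0 with library size only, with the replicate block, with the Xist covariate and with scaling to hepatocyte markers, and 0 to 3 on leaving out a mouse. The median log2 fold change of the enzymes was -0.007 with library size only, 0.12 for p62S351E/+ mouse 3 alone and 0.053 with scaling to hepatocyte markers, and 0.53 to 0.91 on leaving out a mouse. The cause of these shifts was not tested.

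The sign of some log2 fold changes turned. With library size only, the values were Cyp8b1 -0.007, Cyp27a1 -0.30, Hsd3b7 -0.74, Amacr -0.066, Hsd17b4 -0.13, Abcd3 -0.33, Atp8b1 -0.22 and Abcb4 -0.50. For mouse 3 alone they were Cyp27a1 -0.039, Hsd3b7 -0.59, Baat -0.061, Akr1c14 -0.021, Abcd3 -0.075 and Abcb4 -0.20. With scaling to hepatocyte markers they were Cyp27a1 -0.32, Hsd3b7 -0.66, Hsd17b4 -0.13, Abcd3 -0.25, Atp8b1 -0.19 and Abcb4 -0.32. Hsd3b7 was also at -0.022 with limma-voom, -0.18 with library size without the 3 largest genes, -0.24 with at least 10 counts in every library, -0.0063 with the replicate block, -0.37 with the Xist covariate, and between -0.091 and 0.29 on leaving out a mouse (negative without p62S351E/+ mouse 1 or 2), and Abcb4 was between -0.075 (without p62S351E/+ mouse 1) and 0.52.

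Over all genes, 50 were higher and 5 lower. DESeq2 gave 61 and 12, limma-voom 122 and 13, the legacy method 60 and 8, library size only 12 and 2, library size without the 3 largest genes 34 and 4, no filter 79 and 10, at least 10 counts in every library 70 and 29, the Xist covariate 27 and 2, scaling to hepatocyte markers 11 and 7, mouse 3 alone 72 and 23, and leaving out a mouse 16 to 29 and 1 to 4, except 333 and 975 without p62S351E/+ mouse 3. The median of all genes was -0.68 with library size only, -0.23 without the 3 largest genes, -0.18 with DESeq2, -0.16 without a filter and -0.64 with hepatocyte scaling. The replicate block gave 18 and 1, and the Cyp39a1 log2 fold change was then 1.69 (edgeR adjusted p = 0.151). Replicate numbers shared by the genotypes name different mice, and the correlations of same-numbered deviations were 0.0757, -0.0906 and -0.0014, so the numbers do not pair the mice. Cyp7a1 could not be tested where 10 counts were required in each library. Cyp7b1 did not pass the filter of the main fit. It was fitted in DESeq2, without a filter, for p62S351E/+ mouse 3 alone and on leaving out some of the mice, and entered those medians.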
